A study of Mus musculus with 24 samples.

Results

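The regions described here are 366 sites of the mouse embryonic stem cell genome where SPT5 gave a strong and repeated ChIP-seq peak and neither of 2 NELF subunits did. They were chosen by measured values. In each of 6 peak lists, the 10000 peaks of highest pileup (the mean ChIP coverage of a peak) on chromosomes 1 to 19 were called strong, after chromosome 14 beyond 95 Mb had been left out. A strong peak of the second SPT5 library became a member if it was shorter than 8000 bp, overlapped a strong peak of the first SPT5 library by at least 1 base, and overlapped no strong peak of the 2 NELFB:HA or the 2 NELFE libraries. Of the 10000 strong peaks of the second SPT5 library, 854 (8.54%) overlapped no strong NELF peak, 397 of these were repeated in the first SPT5 library, and 31 of the 397 were 8 kb or longer, which left the 366 members. The other 457 of the 854 were not repeated in the first SPT5 library. The 6 lists together held 1762598 peaks on these chromosomes. Pileup, length, overlap and the absence of strong NELF chose the members, so values of these measures are given as descriptions, with no test.

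The series holds 24 samples, of which the 6 control ChIP-seq libraries are analysed here. All 6 came from E14 cells, an established mouse embryonic stem cell line, grown in serum with LIF, with the genotype labelled Nelfb deg and the treatment labelled Control. The file headers call the 2 SPT5 libraries and their input wt, which the labels do not mention. NELFB was precipitated through an HA tag (NELFB:HA), and NELFE and SPT5 through antibodies to NELFE and to DSIF, in 2 libraries each. By the labels, every library thus carries the NELFB degron, and none came from cells with unmodified NELFB. The headers leave this unsettled for SPT5. If they are right, genotype and antibody cannot be told apart where SPT5 is set against NELF. No cells treated with dTAG-13 enter the values below. Libraries held 27324697 to 62312558 filtered tags, and all 7 of 7 pluripotency marker genes, against 0 of 10 marker genes of other cells, carried a strong SPT5 peak in both SPT5 libraries. Nothing states that the 2 libraries of an antibody came from separate cultures, so their spread may be technical. The SPT5 libraries had tags of 100 and 101 bp and shared 1 input, while the 4 NELF libraries had tags of 50 bp and an input each, so antibody and sequencing batch cannot be told apart in any statement that sets SPT5 against NELF.

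SPT5 and SPT4 form DSIF, which binds RNA polymerase II after initiation and, with NELF, holds it paused a short way past the start of a gene. When the kinase P-TEFb acts, NELF leaves while DSIF stays with the polymerase as it elongates, up to the region past the polyadenylation site where transcription slows and ends. Strong NELF is therefore known mainly from gene starts, and SPT5 from starts, bodies and ends of active genes.

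The promoter sequences at members show what kind of gene start is among them. The 300-base windows around RefSeq gene starts (build GRCm38.p6, the assembly of mm10) were used, since no genome sequence was used here and bases at other members could not be read. Shown are the 250 bases before the start, 5′ to 3′ on the strand of the gene, for the 4 members of highest SPT5 pileup percentile that held the whole window of a protein-coding gene and lay outside the clusters of members described below, and for the 2 SPT5 peaks with strong NELF that ranked highest by the same rule. Capitals mark CpG dinucleotides.
Zfp59, zinc finger protein gene, chr7:27838334-27838583, plus strand: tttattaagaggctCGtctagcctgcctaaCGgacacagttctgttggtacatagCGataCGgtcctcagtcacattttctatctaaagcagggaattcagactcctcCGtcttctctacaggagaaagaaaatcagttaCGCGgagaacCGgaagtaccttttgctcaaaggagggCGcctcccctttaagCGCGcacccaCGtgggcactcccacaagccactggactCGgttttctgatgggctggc
Elovl5, fatty acid elongase gene, chr9:77917115-77917364, plus strand: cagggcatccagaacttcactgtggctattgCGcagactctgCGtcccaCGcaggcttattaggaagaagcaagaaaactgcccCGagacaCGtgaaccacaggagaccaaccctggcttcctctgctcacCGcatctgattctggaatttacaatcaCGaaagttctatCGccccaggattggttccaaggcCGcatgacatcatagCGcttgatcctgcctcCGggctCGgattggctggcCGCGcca
Epha4, ephrin receptor gene, chr1:77515089-77515338, minus strand: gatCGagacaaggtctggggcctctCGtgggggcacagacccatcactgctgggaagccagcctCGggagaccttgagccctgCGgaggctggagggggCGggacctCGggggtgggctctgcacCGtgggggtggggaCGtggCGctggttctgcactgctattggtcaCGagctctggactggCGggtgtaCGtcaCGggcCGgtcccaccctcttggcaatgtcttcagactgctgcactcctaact
Gm14124, predicted gene, chr2:150257267-150257516, plus strand: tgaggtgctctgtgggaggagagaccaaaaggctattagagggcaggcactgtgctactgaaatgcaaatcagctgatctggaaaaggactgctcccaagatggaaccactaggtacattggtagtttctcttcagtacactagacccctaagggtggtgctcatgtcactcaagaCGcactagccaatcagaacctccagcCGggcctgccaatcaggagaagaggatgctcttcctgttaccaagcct
H1f1 (strong NELF), linker histone gene, chr13:23763418-23763667, plus strand: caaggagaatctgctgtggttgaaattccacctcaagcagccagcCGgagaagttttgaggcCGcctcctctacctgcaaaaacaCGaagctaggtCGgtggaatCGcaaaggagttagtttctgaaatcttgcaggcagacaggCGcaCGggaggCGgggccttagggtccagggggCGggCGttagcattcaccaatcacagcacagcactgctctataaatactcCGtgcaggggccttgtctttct
Arid5a (strong NELF), ARID domain gene, chr1:36307483-36307732, plus strand: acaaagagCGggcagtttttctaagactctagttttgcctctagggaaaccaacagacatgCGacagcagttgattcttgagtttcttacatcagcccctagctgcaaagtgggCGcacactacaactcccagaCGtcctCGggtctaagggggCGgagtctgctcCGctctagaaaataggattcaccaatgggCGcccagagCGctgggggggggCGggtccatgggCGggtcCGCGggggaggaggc
The 250 bases shown for Zfp59, Elovl5 and Epha4 held 13, 14 and 14 CpG and those for Gm14124 2, against 11 for H1f1 and 13 for Arid5a. Over all 67 members at a promoter, the 300-base window had a median GC content of 57.0% (interquartile range 50.7% to 67.5%) and a CpG observed over expected ratio of 0.638 (0.438 to 0.816). At the 4529 promoters under SPT5 peaks with strong NELF the medians were 62.7% and 0.826, and over all 32851 windows 52.7% and 0.384. A ratio of at least 0.6 was reached by 37 of the 67 (55.2%, Wilson 43.4% to 66.5%), by 86.0% of the promoters with strong NELF and by 35.8% of all windows. The letters TATAAA, on either strand, stood in 5 of the 67 windows (7.46%), in 5.30% of the windows with strong NELF and in 13.6% of all. AATAAA stood in 13 of 67 (19.4%), 9.80% and 19.6%, and ATTTGCAT in 1 of 67 (1.49%), 1.44% and 1.74%.

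The distance to the nearest strong NELFE peak, edge to edge, separated members beside strong NELFE from distant ones, which could hold weaker NELF peaks. Its median over the members was 18907 bp (95% order-statistic interval 15744 to 25578 bp, which covers the choice of regions and not library error), the nearest lay 80 bp away and the farthest 3708091 bp. Under 2 kb lay 28 members (7.65%), between 2 and 10 kb 97 (26.5%), between 10 and 50 kb 139 (38.0%) and at 50 kb or more 102 (27.9%), so 241 of 366 (65.8%, Wilson 60.8% to 70.5%) were at least 10 kb from strong NELFE. To the nearest strong NELFB:HA peak the median was 15938 bp. The distance moved with the number of peaks called strong, to a median of 43986 bp with 5000 peaks and of 5009 bp with 20000, and to 0 bp when an overlap had to cover at least 50% of the peak. Some members adjoined other strong SPT5 peaks: 58 members (15.8%) had another strong peak of the second SPT5 library, not itself a member, within 2 kb. The same share over all strong SPT5 peaks is not given here, so 15.8% is not read as high or low. Of the 28 members under 2 kb, 14 overlapped a peak of the first SPT5 library that itself reached a strong NELF peak, against 0 of the 102 at 50 kb or more. Distance to strong NELFE defines these classes and limits which peaks can reach it, so nothing is read from this contrast.

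**Figure D1:**
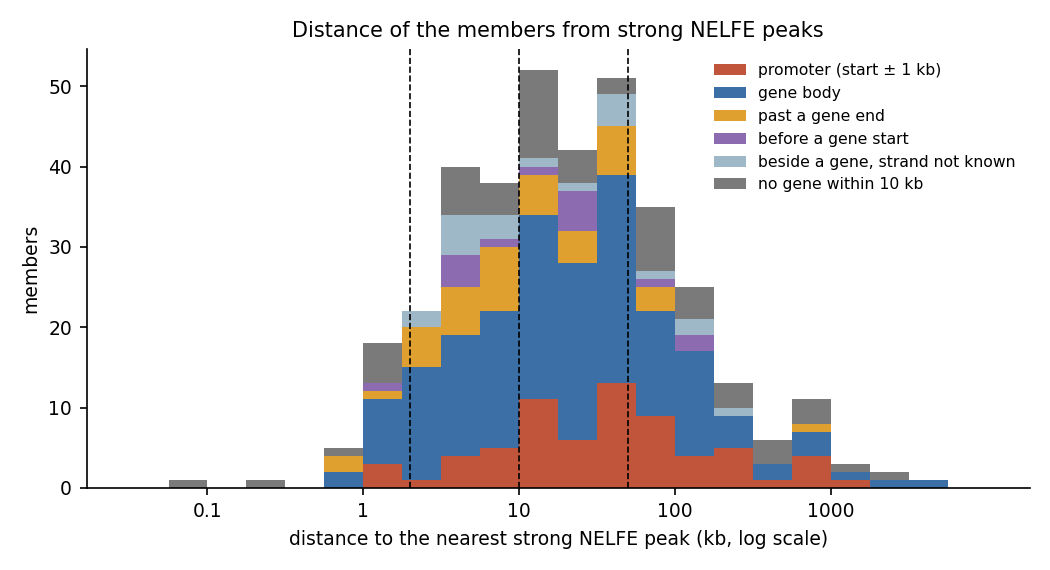
Number of members (vertical axis) by distance to the nearest strong NELFE peak in kb (log scale), coloured by position relative to genes, with dashed lines at 2, 10 and 50 kb. The classes from 2 to 10 and from 10 to 50 kb hold 97 and 139 members, gene-body members are found at all distances, and of 67 promoter members 29 lie between 10 and 50 kb and 25 at 50 kb or more.

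More members lay in gene bodies than at gene starts, an order that held with 20000 peaks called strong (57.1% and 4.99%) and turned with 5000 (28.7% and 43.7%). By their centre, 165 of 366 (45.1%, Wilson 40.1% to 50.2%) were in the body of a protein-coding or lncRNA gene, 67 (18.3%, 14.7% to 22.6%) within 1 kb of a gene start, 41 (11.2%, 8.37% to 14.8%) within 10 kb past a gene end, 15 (4.10%) within 10 kb before a start, 20 (5.46%) beside a gene whose strand the tables did not give, and 58 (15.8%, 12.5% to 19.9%) had no gene within 10 kb. The 7424 short, repeated SPT5 peaks that did overlap a strong NELF peak were at a start in 61.0%, in a body in 27.0%, past an end in 2.34% and without a gene in 3.87%. Pileup differed between these sets, with medians of 22.6 and 31.6. Among the 1432 peaks with strong NELF whose pileup lay within the members' interquartile range, 49.7% were at a start, 30.9% in a body, 3.70% past an end and 8.10% without a gene. The 741 repeated SPT5 peaks of 8 kb or more were in a body in 75.3% and past an end in 9.45%. Gene position was not used to choose the members, but regions are no replicates, the rule bars the strong NELF that marks most starts, and these shares are given without a test. The share at a start was also taken by the number of NELF libraries that had a strong peak there. Among short, repeated SPT5 peaks it was 18.3% with none (the 366 members), 32.0% with 1 library (266 peaks), 33.0% with 2 (303), 47.7% with 3 (522) and 64.7% with all 4 (6333). In the same order, the median ratio of ChIP to local input in the second SPT5 library was 2.09, 2.06, 2.09, 2.29 and 2.94. The rule used this number of libraries to choose the members, so nothing is read from the order. The median distance to strong NELFE was 32852 bp for members at a start, 18782 bp in a body, 9190 bp past a gene end and 18330 bp without a gene.

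**Figure D2:**
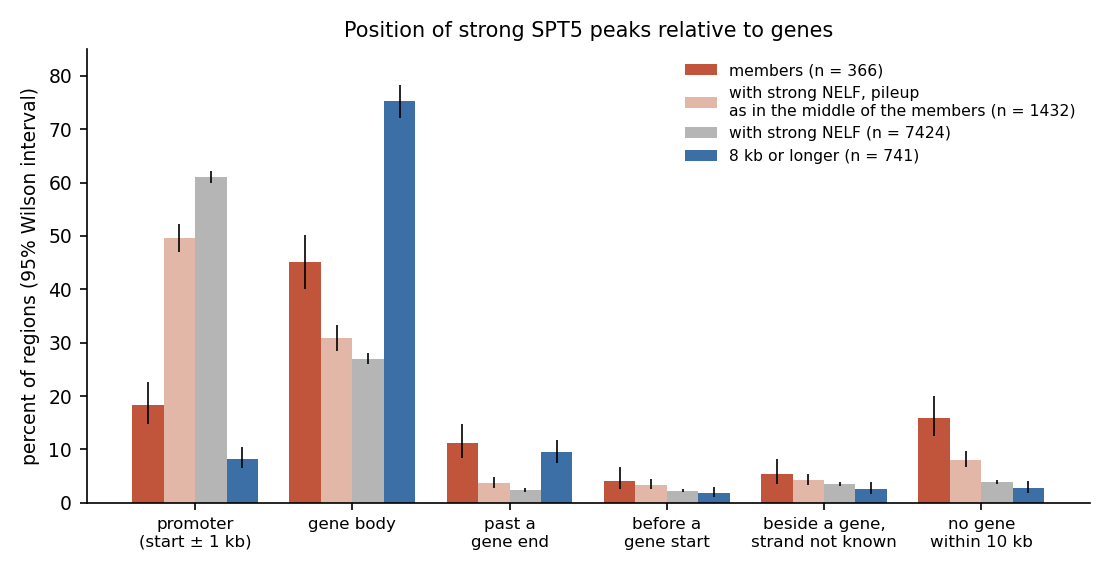
Percent of regions (vertical axis, bars from 0, whiskers 95% Wilson intervals of counting error) by position relative to genes, for the members, for SPT5 peaks with strong NELF whose pileup lies in the members' interquartile range, for all SPT5 peaks with strong NELF, and for repeated SPT5 peaks of 8 kb or more. Members are at a start in 18.3%, against 49.7% and 61.0% with strong NELF, and past a gene end in 11.2%, against 3.70% and 2.34%.

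Past gene ends, SPT5 stood in regions of up to several kb. Where the gene start could be assessed, it mostly carried strong SPT5. The centre of the 41 members of this kind lay a median of 2165 bp past the annotated end (43 to 9140 bp), and 28 of the 41 lay within 5 kb of it. Of the 25 next to a protein-coding gene of known strand, 21 (84.0%) were behind a gene whose start carried a strong NELFE peak and 24 (96.0%) behind one whose start carried a strong SPT5 peak. The other members of this kind could not be assessed. In gene bodies and past gene ends together, these shares were 82.8% and 82.1% for SPT5 peaks with strong NELF. They were 95.6% and 97.0% for long peaks, so nothing particular to the members is read from them. The clearest case was Hnrnpa3, which encodes an RNA-binding hnRNP protein. Its member at chr2:75669125-75674019 was 4895 bp long, centred 2165 bp past the gene end and 6826 bp from strong NELFE, and had the highest pileup of all members in the second SPT5 library, 68.2 (38.4 in the first). Its SPT5 fold, the ratio of ChIP to local input in the deposited lists, was 7.17 and 7.42 in replicates 1 and 2, while the strongest NELF peaks there had folds of 1.67 and 2.53 (NELFB:HA) and 1.80 and 2.12 (NELFE). Both SPT5 values were above the 4 NELF values. The rule favours such a gap, since it asks for strong SPT5 and bars strong NELF, so nothing is read from it.

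Other members past gene ends were those of Wdr77, a cofactor of the arginine methyltransferase PRMT5 (7736 bp, SPT5 folds 3.70 and 3.14), and, named after their values were seen, of Sumo2, a ubiquitin-like modifier (4925 bp, 2.57 and 2.79) and Hspa4, a chaperone of the HSP70 family (5563 bp, 2.44 and 2.56). Each of these 3 genes carried strong NELFE at its start, and the nearest strong NELFE peak lay 5394, 2471 and 36346 bp from the member. Not all members of this kind were of this form. Those behind the predicted gene Gm40467 on chromosome 8 were 1247 and 272 bp long with SPT5 folds of 1.73 and 1.44 and of 1.65 and 1.75, and lay in a cluster described below.

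Within genes, members were spread over the whole body. For 96 members in bodies of protein-coding genes of known strand, the centre lay at a median of 0.508 of the way from start to end (interquartile range 0.247 to 0.840). In the first 25% of the gene lay 25 (26.0%) and in the last 25% lay 29 (30.2%, Wilson 21.9% to 40.0%). For 968 SPT5 peaks with strong NELF in such bodies the median was 0.139, with 61.0% in the first and 13.3% in the last 25%, and for 434 long peaks it was 0.492, with 35.9% in the first and 24.7% in the last 25%. Of these 96 members, 53 (55.2%) lay in a gene whose start carried strong NELFE and 64 (66.7%) in one whose start carried strong SPT5. With the 25 members past gene ends added, it was 74 of 121 (61.2%) and 88 of 121 (72.7%), against 82.8% and 82.1% of peaks with strong NELF in the same positions and 95.6% and 97.0% of long peaks.

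**Figure D3:**
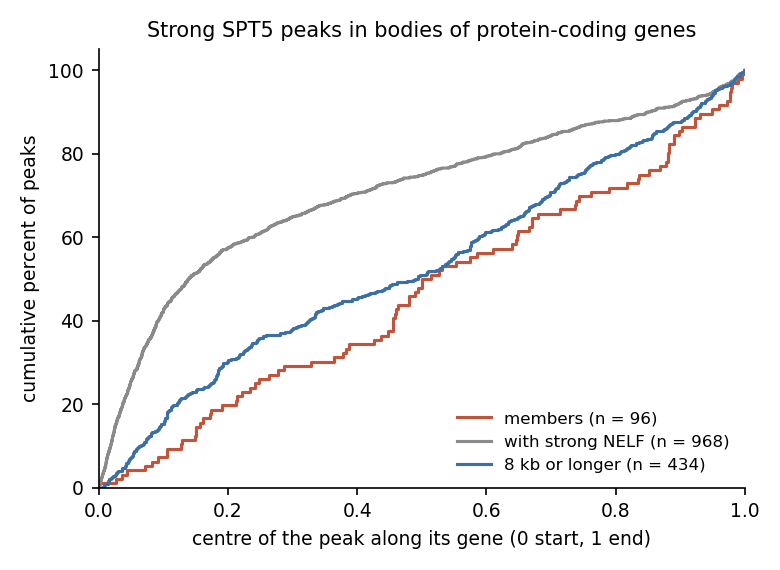
Cumulative percent of strong SPT5 peaks in bodies of protein-coding genes (vertical axis) by the position of their centre along the gene (0 is the start, 1 the end), for 96 members, 968 peaks with strong NELF and 434 peaks of 8 kb or more. The curve of the peaks with strong NELF rises near the start (median 0.139), while the curves of members (median 0.508) and long peaks (median 0.492) rise more evenly, that of long peaks reaching 35.9% in the first 25% of the gene and that of members 26.0%.

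Several members in gene bodies lay near the end of the gene. Mdm2, the ubiquitin ligase of p53, held the longest member, 7888 bp at chr10:117685385-117693272 and 0.979 of the way along the gene, with SPT5 folds of 2.25 and 2.26 and NELF folds of 1.61 and 1.78 (NELFB:HA) and 1.69 and 2.22 (NELFE). The NELFE fold of the second library was close to that of SPT5 there. Eif4g1, a scaffold of the translation initiation complex, held one at 0.930 of its length (SPT5 folds 2.80 and 3.01), and Ptp4a1, a phosphatase gene, one at 0.996 (3.28 and 3.70). These 2 were named after their values were seen. Zfp978 held 5 members, Dst, a cytoskeletal linker gene, 3 and Zfp980 3, and no other gene held more than 2. The 3 members in Dst lay at 0.0923, 0.243 and 0.489 of the gene, with folds in the first SPT5 library of 2.07, 2.21 and 2.36.

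At gene starts, most members held a NELF peak below the strong ranks. Of the 67 promoter members, whose median fold in the first SPT5 library was 2.23, 56 (83.6%) held a peak of some strength in all 4 NELF libraries, where 95.3% of all strong SPT5 peaks did. At Nr5a2, which encodes a nuclear receptor of the pluripotency network, the member at chr1:136951497-136953841 lay 252491 bp from strong NELFE. Its folds were 2.55 and 2.69 for SPT5, 2.41 and 1.94 for NELFB:HA and 2.65 and 2.96 for NELFE, so the values of SPT5 and NELFE overlapped. Epha4, whose promoter is printed above, lay 972823 bp from strong NELFE, with folds of 2.19 and 2.32 for SPT5, 2.29 and 1.86 for NELFB:HA and 2.42 and 2.64 for NELFE. The strongest promoter member by pileup was that of AV205837, of 7286 bp, with SPT5 folds of 4.05 and 4.28 and NELF folds of 1.82 to 2.24. Promoters with SPT5 and no NELF peak of any strength numbered 3 of the 67, all at predicted genes.

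Some members held no NELF peak at all. Of all 366 members, 38 (10.4%, Wilson 7.66% to 13.9%) overlapped no peak of any strength in any NELF list, as did 84 of all 10000 strong SPT5 peaks (0.84%). Of these 38 members, 16 had no gene within 10 kb. On chromosome 12, a pair of short members of 312 and 287 bp at chr12:54734531-54734842 and chr12:54714093-54714379 overlapped the annotated snRNA genes LOC115488077 and LOC115488065, of 164 bp each, which lie inside the pseudogenes Gm2412 and Gm2395. Small nuclear RNAs are known as parts of the splicing machinery. Their SPT5 folds were 10.8 and 7.68 at the first and 8.03 and 6.20 at the second, the first pair being the highest of any member in replicate 1 and in replicate 2. Neither held a NELF peak in any of the 4 lists. Both loci are annotated alike, and how reads were divided between such copies is not given in the sources used here, so their separate values are uncertain. Tags were 50 bp in the NELF libraries and 100 and 101 bp in the SPT5 libraries. The part of tag length in the missing NELF peaks at such copies was not tested, so absence of NELF is not read from them. Of the 38, 13 had a deposited q-value of 0.01 or less in both SPT5 libraries, among them chr4:12236774-12237306 over the pseudogene Gm11847 (folds 6.26 and 5.48) and chr4:124353648-124353988 at the start of Gm52719 (6.00 and 4.76). Over all 38 the median fold was 1.90 and 1.76, the median length 542.5 bp, and 25 of them (65.8%) had a fold under 2 in the second SPT5 library.

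High pileup did not always go with high enrichment over input. Of the 366 members, 160 (43.7%) had a fold under 2 in the second SPT5 library, against 14.6% of all 10000 strong SPT5 peaks and 9.94% of those with strong NELF. Among those with strong NELF and a pileup in the members' interquartile range it was 24.4%. That last set holds pileups of 20.7 to 25.5 only, while members of all pileups are counted. The member of highest pileup in the first SPT5 library, in the predicted gene Gm31055 at chr4:153152957-153153987, had pileups of 51.1 and 53.1 but folds of 2.69 and 1.70. In Litaf (chr16:10974973-10975291) pileups of 33.3 and 45.0 went with folds of 1.54 and 1.33, and at chr11:3101393-3102396, with no gene within 10 kb, pileups of 24.9 and 39.6 went with folds of 1.43 and 1.29. Pileup divided by fold, a measure of the local input background, was 31.3, 33.9 and 30.7 at these 3 sites, against a median of 10.7 over all members. A deposited q-value of 0.01 or less was held by 145 members (39.6%) in the second SPT5 library, where 78.3% of all 10000 strong peaks held one, and by 104 (28.4%) at the first library's strong peak, against 64.8%. Both were reached by 82 members (22.4%, Wilson 18.4% to 27.0%). Since pileup and the absence of NELF chose the members, nothing is read from these shares. The 82 had SPT5 median folds of 3.10 and 3.03, and 15 of them were at a start, 32 in a body, 11 past a gene end and 15 without a gene within 10 kb.

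**Figure D4:**
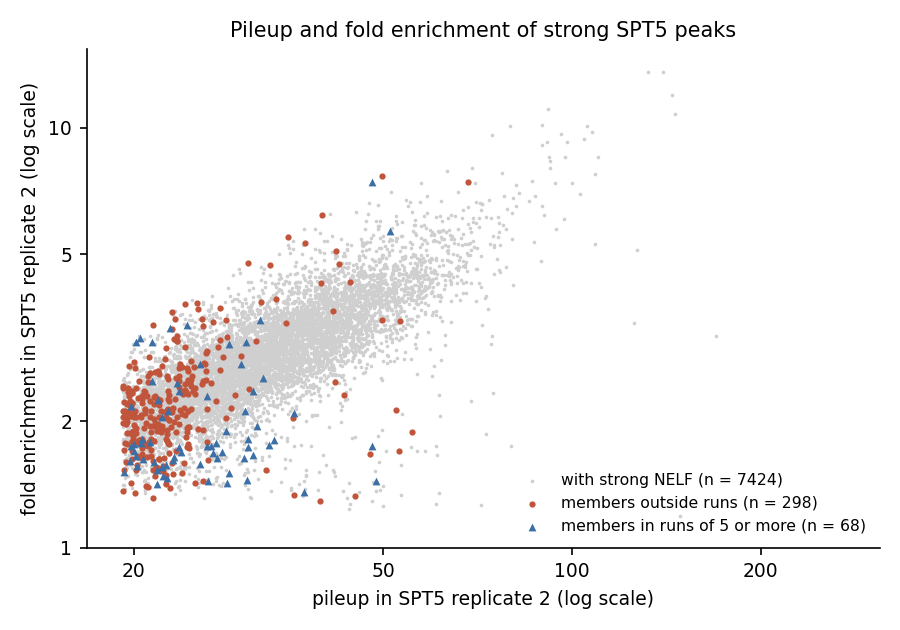
Pileup (horizontal axis) and fold enrichment (vertical axis) of strong peaks in the second SPT5 library, both on log scales, for 7424 peaks with strong NELF, 298 members outside and 68 members inside runs of 5 or more. Most members sit at the low end of pileup (median 22.6), and members of high pileup are found both at high folds (Hnrnpa3, 7.42) and at low ones (Gm31055, 1.70).

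Some members clustered, mainly among zinc finger genes and predicted genes. Joining members less than 500 kb apart gave 8 runs of 5 or more, which held 68 of the 366. The largest, from 146902907 to 147810590 on chromosome 4, held 19 members over zinc finger genes, among them Zfp978, Zfp982, Zfp993 and Rex2. Another, of 13 members from 19697630 to 20989575 on chromosome 8, spanned predicted genes and the defensin gene Defa21. The others held 5 to 7 members each, on chromosomes 4, 7, 13 (2 runs), 14 and 17. In or within 10 kb of a gene named Zfp, Zscan, Zkscan or Rex2 lay 38 members (10.4%), against 3.91% of SPT5 peaks with strong NELF. The share over all strong SPT5 peaks and the number of runs that such peaks form are not given here. Nothing particular to the members is therefore read from the runs or from these shares. Members in runs had a median fold of 1.75 in the second SPT5 library, against 2.12 outside, and a higher pileup over fold (13.5 against 10.4). Peaks of any NELF library were lacking at 19 of 68 in runs (27.9%) and at 19 of 298 outside (6.38%). Reads of near-identical copies can be divided or misplaced between them, so values in runs are uncertain, and the part of that in their NELF counts was not tested. In the run on chromosome 7 folds were not as low. Its 5 members between 29943520 and 30626289, near Aplp1, Capns1, Cox6b1, Zfp382 and Zfp74, had a median fold of 2.25, and 0 of the 5 were under 2.

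Most members held a NELF peak below the strong ranks. A peak of any strength overlapped 288 and 289 of the 366 members in the NELFB:HA lists (78.7% and 79.0%) and 273 and 285 in the NELFE lists (74.6% and 77.9%), lists that cover 14.5%, 22.2%, 7.45% and 8.10% of the chromosome length. Over all 10000 strong SPT5 peaks the shares were higher, 97.5% and 97.7% for NELFB:HA and 97.2% and 97.4% for NELFE. All 4 lists held a peak at 234 members (63.9%), against 95.3% of all strong SPT5 peaks and 97.6% of the peaks with strong NELF in the members' interquartile pileup range. The rule bars strong NELF at members, which lowers their shares, so nothing is read from the gap. The median fold of these peaks was 1.99 and 1.88 for NELFB:HA and 2.14 and 2.33 for NELFE, against 4.34, 3.40, 5.09 and 5.43 at all SPT5 peaks with strong NELF and 3.12, 2.60, 3.61 and 3.89 at those in the members' interquartile pileup range. For SPT5 the medians were 2.23 and 2.09 at members, against 2.87 and 2.81 at all SPT5 peaks with strong NELF. At those in the members' interquartile pileup range they were 2.45 and 2.25, so the gap in SPT5 was smaller against that set. Across the 366 members the Spearman correlation between the 2 SPT5 libraries was 0.823 for fold and 0.434 for pileup, over regions that share 1 input and are no independent replicates.

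**Figure D5:**
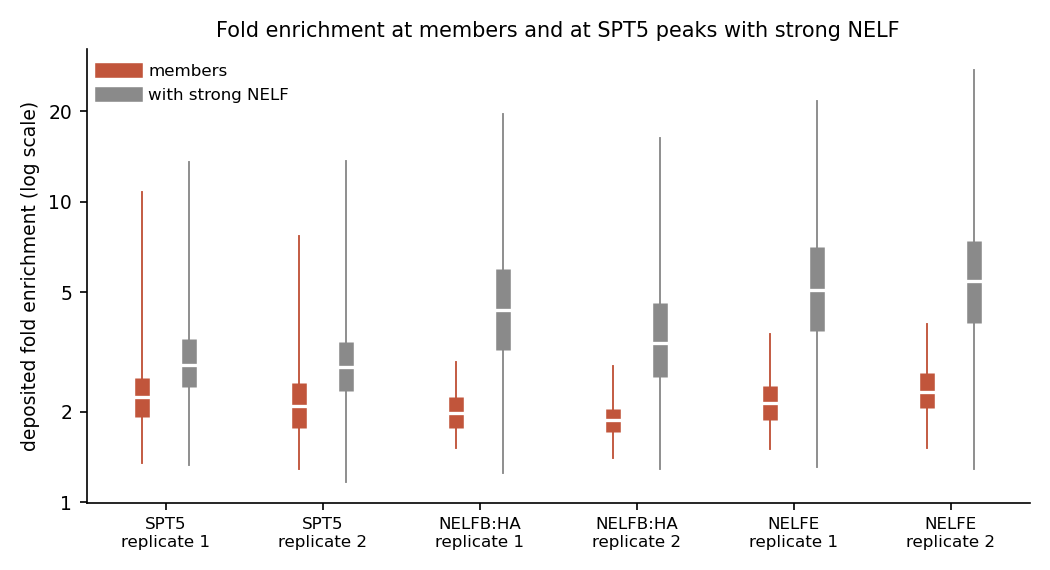
Deposited fold enrichment (log scale) of the strongest overlapping peak in each of the 6 libraries, at members and at SPT5 peaks with strong NELF, with bars from the lower to the upper quartile, white lines at the median, thin lines from lowest to highest, and regions without a peak left out. Members have median folds of 1.88 to 2.33 in the 4 NELF libraries, and the sets overlap in every library.

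The next 10000 peaks of each NELF list describe the weaker NELF of both antibodies at members. They come from the same 4 lists as the rule. A NELFB:HA peak ranked beyond 10000 and up to 20000 overlapped 188 members (51.4%, replicate 1) and 135 (36.9%, replicate 2), where 12.7% and 12.6% of all 10000 strong SPT5 peaks did. A NELFE peak of those ranks overlapped 206 (56.3%) and 217 (59.3%), where 13.2% and 13.5% of all did. The rule bars the first 10000 ranks at members but not at all strong SPT5 peaks, so the sets are unlike and nothing is read from this gap. The mean was 44.1% ± 10.2 (SD, n = 2) for NELFB:HA and 57.8% ± 2.13 (SD, n = 2) for NELFE. The difference of −13.7 percentage points was larger than the pooled SD of 7.39. No test is read from it, since 2 libraries on each side cannot give a permutation p below 0.333. The second NELFB:HA library lay below the other 3 libraries, and the difference was −4.92 points without the libraries numbered 2 and −22.4 points without those numbered 1.

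Genes looked up by list are given beside the share over all genes. Of 33073 protein-coding and lncRNA genes on these chromosomes, 477 (1.44%) had a member within 10 kb, and of the 10745 that overlapped a strong peak of the second SPT5 library 374 (3.48%) did. No list was tested against these shares, and nothing particular to a list is read from its count. Of 93 translation and housekeeping genes, 91 overlapped a strong peak of the second SPT5 library, 0 held a member and 1, the ribosomal protein gene Rps3, had one within 10 kb, in Klhl35 (SPT5 folds 1.92 and 2.08). Of 19 pluripotency genes 16 overlapped a strong SPT5 peak, and 2 had a member within 10 kb, namely Nr5a2, described above, and Pou5f1, which encodes the pluripotency factor OCT4, whose neighbour Tcf19 held a member of 7610 bp at chr17:35511061-35518670, 3120 bp from strong NELFE, with SPT5 folds of 2.43 and 2.24. Of 69 replication-dependent histone genes 61 overlapped a strong SPT5 peak, and 1 member lay within 10 kb of H2bc18 and H3c13, with SPT5 folds of 2.71 and 2.99. The lists of immediate early genes (13 of 13 with a strong SPT5 peak), noncoding RNA genes (19 of 25), elongation factors (11 of 11), NELF and DSIF subunits (6 of 6), Id genes (3 of 3) and termination factors (3 of 3) had 0 members within 10 kb.

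The farthest member from strong NELFE, 3708091 bp away, was in the predicted gene Gm32966 at chr14:4018383-4019319 and still held NELF peaks in 3 of the 4 lists (folds 2.39, 2.20 and 2.36, with SPT5 at 2.75 and 3.33). The members of highest pileup percentile in each distance class, 6 per class, were of mixed kind. At 50 kb or more they had SPT5 folds in replicate 2 between 1.67 and 5.48, and 5 of these 6 held no NELF peak of any strength. These 5 were the members in Gm31055 and over Gm11847, both given above, and chr3:149052516-149052870, chr2:182012804-182013148 and chr16:39052602-39052845, with no gene within 10 kb and SPT5 folds of 2.60 and 1.89, 2.09 and 1.67, and 2.61 and 2.48. The sixth, at the start of the predicted gene Gm38418, held NELF peaks in all 4 lists, with folds of 1.89 to 2.65 beside SPT5 folds of 3.26 and 2.03.

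Between 10 and 50 kb the 6 were both snRNA sites, the member in Litaf, a member past Gm40467, one in Zfp978 and one in Ndst1. Ndst1, a heparan sulfate sulfotransferase gene, had SPT5 folds of 3.73 and 3.49, NELFB:HA folds of 1.61 and 1.73, a NELFE fold of 1.68 in replicate 1 and no NELFE peak in replicate 2. The member in Zfp978 at chr4:147309562-147310789 had SPT5 folds of 5.29 and 5.66, above all other members in that run, and NELFE folds of 2.67 and 3.23. Between 2 and 10 kb, Hnrnpa3 and Gm40469 (SPT5 folds 8.29 and 7.41, NELFE folds 3.30 and 3.62) stood highest, and the class also held Efl1, another member in Zfp978 and one before 4930467E23Rik. Efl1, a GTPase gene of ribosome maturation, had pileups of 16.2 and 52.4 and folds of 1.93 and 2.13. Under 2 kb, the 6 had folds in replicate 2 between 1.29 and 2.25. They were the members in Adhfe1 (618 bp from strong NELFE, SPT5 folds 2.35 and 2.25), Zfp993 (1.82 and 1.74) and Zfp978 (1.53 and 1.36), and 3 without a gene within 10 kb, at chr11:3101393-3102396, chr9:3017450-3018057 (1.52 and 1.34) and chr16:3349975-3350294 (2.13 and 1.73). Both SPT5 libraries gave Adhfe1 the highest fold of these 6.

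Membership depended on the number of peaks called strong, and 315 of the 366 members ranked beyond 5000 in the second SPT5 library. Just inside the length limit were the members of Mdm2 (7888 bp) and Wdr77 (7736 bp), and just outside it a region at the start of Gm13201 (8119 bp) and one past Grk6 (8283 bp). The lowest pileups inside were 19.2 in Pde3a and 19.21 at 4930423B08Rik, and the highest outside 19.15 past Dnajc8 and 19.13 in Utrn. The NELF peaks nearest to the limit were at rank 10011 past Ndufa10 (NELFB:HA replicate 2) and 10016 in Zfp13 (NELFE replicate 1), inside it, and at 9993 in Smim40 (NELFB:HA replicate 2) outside it. With 20000 peaks called strong per list there were 1062 such regions, and 99 of the 366 (27.0% of the members, 9.32% of the 1062) were among them. With 5000 there were 293, of which 36 were members (9.84% and 12.3%). With peaks ranked by fold enrichment in place of pileup there were 248, 86 of them members (23.5% and 34.7%). Without the first SPT5 library 817 regions met the rule. Taking the peaks of the first SPT5 library that overlapped the second gave 358 regions, and 321 of the 366 members (87.7%) overlapped one of them. The rule largely sets this share, since each member already overlaps a strong peak of the first library. It is therefore not set against the shares of the other settings.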

How the data were processed

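Per the file headers, MACS 2.1.1.20160309 was run in broad mode on 1 library at a time against an input, with p-value cutoffs of 0.01 for strong and 0.1 for weak regions. "Strong peak" in the text refers to rank only. Bowtie2, deepTools, MACS2 and mm10 are named in the submitters' processing notes. The deposited pileup signal is ChIP coverage after scaling to the smaller library, so it is not comparable between libraries. The deposited fold is the ratio to the local input. The deposited −log10 p-value is a mean over each peak, and so is the deposited −log10 q-value. The headers say that q was not calculated, yet the column holds values, which were used.

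Overlaps, distances and gene positions were computed with Python 3.11.15, numpy 2.4.6, pandas 2.3.3 and scipy 1.17.1, and overlaps and distances were tested on simulated intervals. Gene bodies and starts came from RefSeq tables (GRCm38.p6, 34631 protein-coding and lncRNA genes, 282 of 366 members next to a gene of known strand). Ties at rank 10000 were broken by file order. Named members were the 6 of highest mean pileup percentile per distance class, the extremes, those at the limits and those near listed genes, and 2 of these are not reported here. Members, lists and tests were chosen with earlier results of these data known. Wilson intervals (95%) cover counting error only. Groups and replicate numbers came from sample titles. The 18 other samples are not analysed here. Alternatives are given in the closing section. Sequence features planned at member centres were read in promoter windows instead, since no genome sequence was used here.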

Additional observations from a re-analysis of the deposited data

How the results depend on the processing

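An alternative value counted as the same within the interval of the main value or, for the number of members, within 1.5 times of it. The difference between NELFB:HA and NELFE had no interval and counted as the same whenever its sign was kept. Of 120 alternative values of 9 results, 88 were the same and 32 moved. The cause of the moves was not tested. Only the difference between NELFB:HA and NELFE could change sign, since the other results are never negative. It did so in 0 alternatives, and with the replicate block it could not, since pairing leaves the mean as it is. The number of members was 1062 with 20000 peaks, 99 where strong peaks also needed q up to 0.01, 722 when overlap meant at least 50% of the member, and 421 to 817 with 1 library left out, 817 being without SPT5 replicate 1. Median length was 1187.5 bp with 20000 peaks, 1875 bp ranked by −log10 p, 2187 bp at q of 0.01 or less, 1095 bp with a length limit of 4000 bp, 3179.5 bp with overlap of at least 50%, 1713 bp with peaks of SPT5 replicate 1 and 1000 to 1424 bp with 1 library left out. Median distance to strong NELFE was 43986 bp with 5000 peaks, 5009 bp with 20000, 25938 bp at q of 0.01 or less and 0 bp with overlap of at least 50%, and 17381 to 21960 bp with 1 library left out. The share at 10 kb or more was 83.6%, 32.0%, 71.7% and 32.0% in the same order, 70.6% ranked by −log10 p, 71.1% where the SPT5 replicate 1 peak also had no strong NELF, and 63.4% to 70.8% with 1 library left out. The gene-body share was 28.7% with 5000 peaks, 57.1% with 20000, 35.1% ranked by fold and 52.4% with overlap of at least 50%. The promoter share was 43.7% with 5000 peaks, 4.99% with 20000 and 12.3% within 500 bases of a start. The gene-end share was 6.83% with 5000 peaks, and the share without a gene 11.3% with 5000 peaks and 10.5% with overlap of at least 50%. Keeping ties at rank 10000, leaving out members in runs and asking for no strong NELF at the SPT5 replicate 1 peak were chosen after seeing the data, and ties changed nothing. The difference between NELFB:HA and NELFE was −9.15 to −16.4 points over other ranks, overlaps and member sets and −4.92 to −22.4 with 1 replicate number left out. With the replicate block it was −13.7 points with an SD of 12.4 between paired differences, against a pooled SD of 7.39. With 2 against 2 libraries no test could fall below 0.333.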
